A study of Mus musculus with 6 samples.

Results

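The ATF4 and unfolded protein response genes were followed in lung fibroblasts of p38+/+ and p38ki/ki mice. The set holds 31 genes, taken by symbol from the array's annotation with older synonyms mapped by Entrez ID, and all 31 had a probe. They were divided into an ATF4 arm of 14 genes, a chaperone arm of 14 genes that the XBP1 and ATF6 factors are known to drive, and 3 stress sensors, out of 19057 genes with an annotated probe. A probe entered the test if 3 or more of the 6 arrays detected it at a p below 0.05, and 29 of the 31 members and 10412 genes in all had such a probe.

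Lung fibroblasts of 10-week-old mice were grown in DMEM/F12 medium with 15% fetal calf serum and harvested at passage 1. The 3 p38+/+ mice (wt) and 3 p38ki/ki mice (ki) gave 1 Illumina bead array each, so n = 3 per genotype throughout. Which p38 gene carries the ki allele, and what the allele changes, is not given in the sources used here. No stress agent is named for either genotype, so the values describe cultures with no labelled challenge.

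The unfolded protein response adjusts a cell to misfolded protein in the endoplasmic reticulum (ER). The sensor PERK phosphorylates the translation factor eIF2 alpha, which lowers protein synthesis but lets the transcription factor ATF4 be made from its mRNA, while IRE1 splices the Xbp1 mRNA and ATF6 is cut free from the membrane. ATF4 drives genes of amino acid supply and of stress signalling, and kinases other than PERK that respond to amino acid shortage, heme shortage or viral RNA feed it as well (the integrated stress response). XBP1 and ATF6 drive ER chaperones and degradation factors, which secretory cells such as collagen-producing fibroblasts need. The kinase p38 is known to phosphorylate CHOP, the product of Ddit3, a target of ATF4. Arrays read transcript levels, so they show neither the phosphorylation of eIF2 alpha, nor the amount of ATF4 protein, nor the splicing of Xbp1.

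The sequences below show known stress-response motifs upstream of genes of the arms. Promoters came from RefSeq (build GRCm38.p6) as 300-base windows from 250 bases before to 50 after each gene's start, and 29 of the 31 members were matched. Both strands were searched for the ER stress element ERSE (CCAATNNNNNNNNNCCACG), for ERSE-II (ATTGG and CCACG with 1 base between them), for the unfolded protein response element UPRE (TGACGTGG), and for the C/EBP-ATF response element CARE that ATF4 binds (TGATGNAA). ERSE was found in 7 of the 13 chaperone-arm promoters and in 0 of the 14 ATF4-arm promoters, against 0.137% of the 27025 genes with a window. The chaperone arm was listed as genes that XBP1 and ATF6 are known to drive, so its count is not an independent result. Below, each ERSE is in capitals within 10 bases of context on either side, read along the gene's strand, and a capital run that starts with CGTGG is the element on the opposite strand. The members shown were chosen for the motif, after their array values were seen.
Hspa5, chr2:34772015-34772053, plus strand: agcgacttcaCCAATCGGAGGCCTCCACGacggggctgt
Hsp90b1, chr10:86705628-86705666, minus strand: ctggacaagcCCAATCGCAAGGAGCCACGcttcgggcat
Hsp90b1, chr10:86705523-86705561, minus strand: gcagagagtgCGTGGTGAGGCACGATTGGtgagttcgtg
Calr, chr8:84847065-84847103, minus strand: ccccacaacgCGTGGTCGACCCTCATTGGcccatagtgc
Canx, chr11:50325790-50325828, minus strand: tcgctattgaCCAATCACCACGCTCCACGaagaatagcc
Dnajc3, chr14:118937817-118937855, plus strand: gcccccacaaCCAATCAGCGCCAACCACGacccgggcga
Pdia6, chr12:17266481-17266519, plus strand: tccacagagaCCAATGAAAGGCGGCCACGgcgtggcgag
Creld2, chr15:88819510-88819548, plus strand: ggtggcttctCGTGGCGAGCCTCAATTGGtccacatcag
The other chaperone-arm element was found in Herpud1, where ERSE-II (in 0.0444% of all genes) lay 52 bases upstream and a CARE 112 bases upstream. UPRE, present in 0.714% of all genes, was in the window of 0 members. The letters of a motif describe a window and do not show that a factor binds there.

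CARE was found in 4.51% of all genes, in 4 of the 14 ATF4-arm windows and in that of Herpud1. The ATF4 arm includes known targets of ATF4, so its count is not an independent result either. In Trib3 the element begins 15 bases past the start and is not printed. The others are given with the element in capitals, and those that begin with TTGC hold it on the opposite strand.
Asns, chr6:7693215-7693242, minus strand: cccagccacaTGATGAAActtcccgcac
Chac1, chr2:119351039-119351066, plus strand: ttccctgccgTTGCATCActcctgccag
Nupr1, chr7:126625563-126625590, minus strand: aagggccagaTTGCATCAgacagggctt
Herpud1, chr8:94386307-94386334, plus strand: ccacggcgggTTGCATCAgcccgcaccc
The full 250 bases upstream are shown for Chac1 and Ddit4, the members with the largest differences in each direction. Chac1 has a single CARE, in capitals, 193 bases upstream, and the Ddit4 window holds none of the 4 motifs searched.
Chac1, chr2:119350992-119351241, plus strand: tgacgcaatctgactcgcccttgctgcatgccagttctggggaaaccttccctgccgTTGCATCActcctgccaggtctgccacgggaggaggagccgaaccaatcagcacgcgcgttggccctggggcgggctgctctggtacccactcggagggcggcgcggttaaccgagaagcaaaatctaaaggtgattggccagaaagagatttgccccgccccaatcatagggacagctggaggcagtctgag
Ddit4, chr10:59951771-59952020, minus strand: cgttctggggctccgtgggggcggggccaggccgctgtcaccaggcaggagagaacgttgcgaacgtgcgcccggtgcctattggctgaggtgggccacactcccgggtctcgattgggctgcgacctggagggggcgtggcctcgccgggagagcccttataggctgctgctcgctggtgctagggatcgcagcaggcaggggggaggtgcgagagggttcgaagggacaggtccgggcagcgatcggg

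Between the genotypes, a few genes of each arm passed the test. In the ATF4 arm, Chac1 was higher in ki cells and Ddit4, Trib3 and Mthfd2 were lower, so 4 of 14 genes (28.6%) passed the test. In the chaperone arm, 0 genes were higher and 2 were lower, Dnajb9 and Manf, which is 2 of the 13 genes tested (15.4%), while Hspa5, Hsp90b1, Xbp1 and Herpud1 did not pass. Manf entered the test only through the wt arrays, since 0 ki arrays detected it. Of the 12 chaperone-arm genes detected in both genotypes, 1 was lower (8.33%), against 15.4% of 10291 such genes. The split by direction moved with the settings: median scaling over all probes gave 0 higher and 5 lower in the ATF4 arm, and a trended and robust variance prior gave 1 higher (Sdf2l1) and 1 lower in the chaperone arm. Of the 3 stress sensors 2 were tested and 0 passed. Over all 10412 genes, 1687 (16.2%) passed at an adjusted p under 0.05 (limma's moderated test, Benjamini-Hochberg over genes), 907 of them higher (8.71%) and 780 lower (7.49%). The arms were described and not tested against each other or against all genes. Lists of 14 and 13 genes are too short to read their shares against that of all genes. In bulk cultures such as these, fewer cells of a type and less RNA per cell cannot be told apart.

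**Figure D1:**
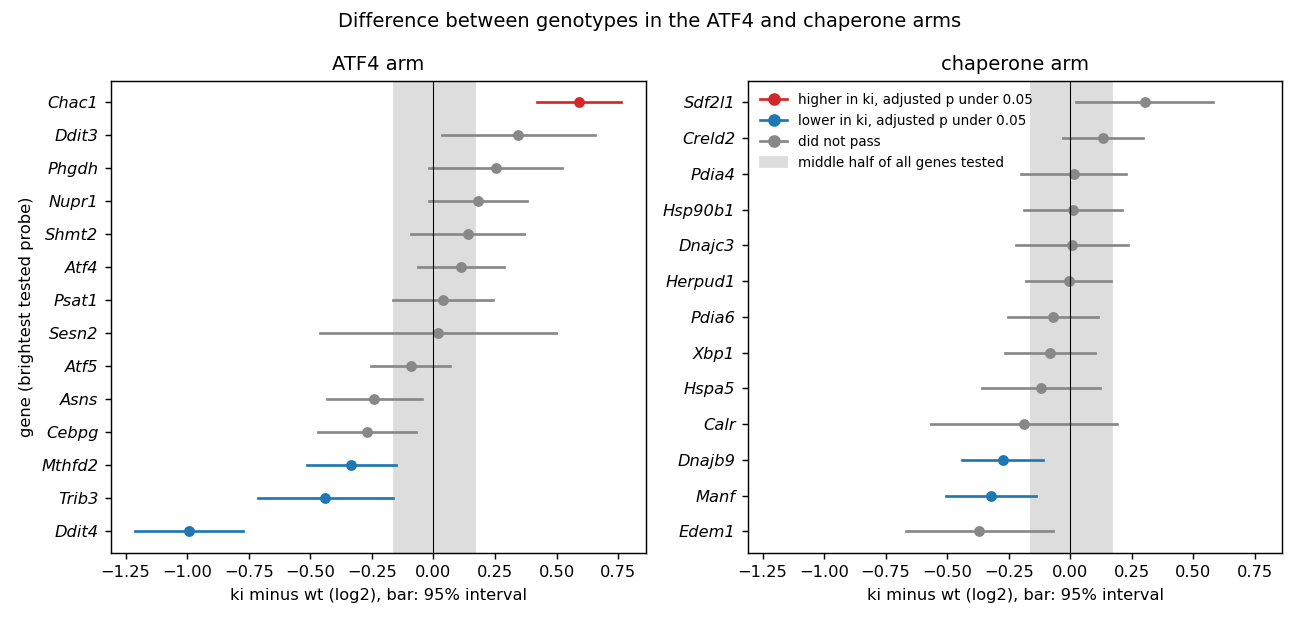
Difference between ki and wt (log2) for each tested gene of the ATF4 arm (left) and the chaperone arm (right), with its 95% confidence interval, coloured where the adjusted p was under 0.05. The grey band spans the central 50% of all genes tested, −0.16 to 0.17. ATF4-arm genes reach from −0.99 (Ddit4) to 0.59 (Chac1) and chaperone-arm genes from −0.37 (Edem1) to 0.30 (Sdf2l1).

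The median difference of the ATF4 arm was 0.03 on the log2 scale, against −0.07 in the chaperone arm and 0.01 over all genes. The ATF4-arm median was below 0 with median scaling over detected probes (−0.0354), over all probes (−0.243, where the median gene stood at −0.217) and with the mean of a gene's probes (−0.114). With the reported settings, its median absolute difference was 0.25, against 0.12 in the chaperone arm and 0.16 over all genes. A difference over 0.25 in size was found for 7 of 14 ATF4-arm genes, 4 of 13 chaperone-arm genes and 33.2% of all genes. The arrays of the genotypes did not overlap for 10 of the 14 ATF4-arm genes (71.4%), for 5 of 13 chaperone-arm genes (38.5%) and for 38.4% of all genes. Summarised per array as the median deviation from the wt mean, the ATF4 arm stood at −0.025, 0.015 and 0.020 in wt and at 0.049, −0.054 and 0.043 in ki. The chaperone arm stood at 0.009, −0.004 and −0.019 in wt and at −0.012, −0.093 and −0.045 in ki. The ki arrays overlapped wt in both arms, and the pooled SD within a genotype was 0.04 for the ATF4 arm and 0.03 for the chaperone arm.

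**Figure D2:**
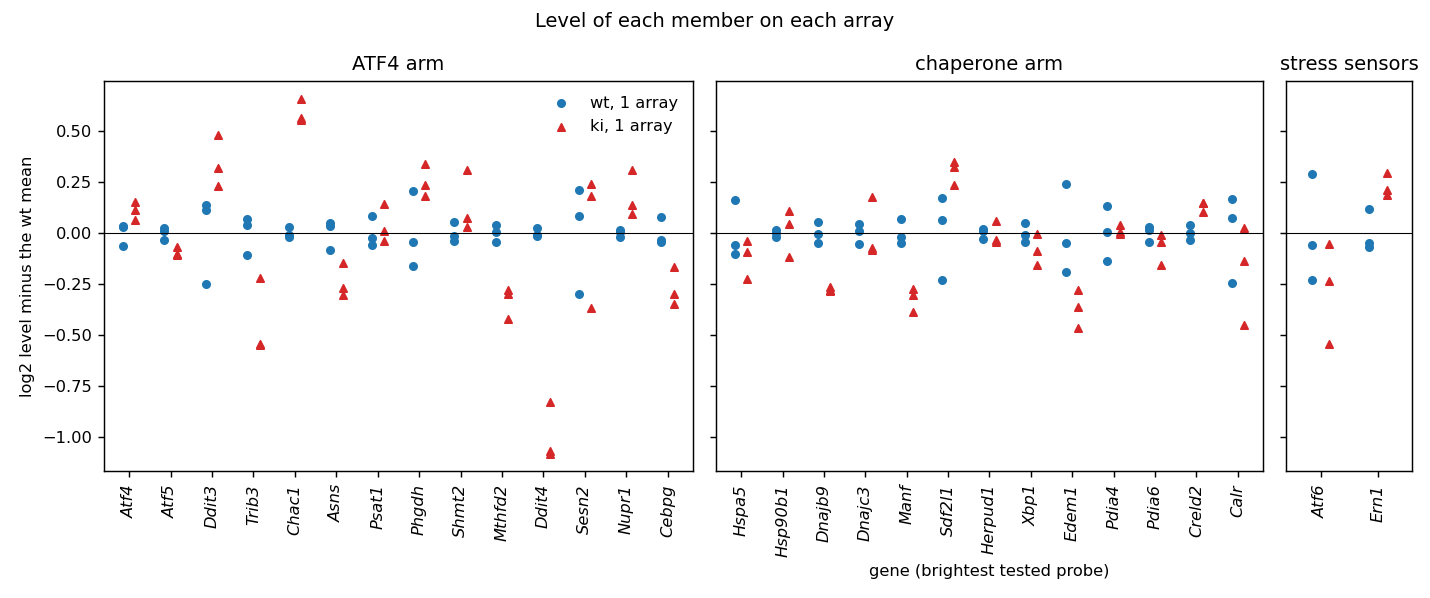
Level of each tested member on each array, as log2 level minus the wt mean of that gene, with blue circles for the 3 wt arrays and red triangles for the 3 ki arrays. Ddit4 and Chac1 lie farthest from the wt arrays, while the ki arrays of Hspa5, Hsp90b1, Xbp1 and Herpud1 fall among or beside the wt arrays.

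Markers of other cell types differed between the genotypes alongside both arms, and their part in the results was not tested. Over all genes 16.2% passed, and 15.4% of those detected in both genotypes. Fibroblast markers were detected in full (10 of 10), with 0 higher and 5 lower in ki, among them Col1a2 (−1.22), Thy1 (−0.59), Col3a1 (−0.40) and Col1a1 (−0.68). Their summed linear level was 125480 to 135183 in wt and 106668 to 113098 in ki. Mesothelial markers were 9 higher and 1 lower of 10 tested (Upk3b, Upk1b, Krt8 and Bnc1 by 2.90, 2.88, 2.75 and 1.96), with sums of 5261 to 5645 in wt and 11708 to 12349 in ki. The lower marker was Igfbp5 (−1.63), which had the highest wt level of these markers (mean log2 11.89). It therefore weighs most in the wt sums. Some mesothelial markers entered the test through the ki arrays alone, and of the 8 detected in both genotypes 7 were higher and 1 was lower. Neutrophil markers were 8 lower of 9 (S100a9 by −3.92), with sums of 12715 to 13414 in wt and 3039 to 3511 in ki. Several of them, among them Mpo, Ctsg and Ngp, were detected on 0 ki arrays and entered the test through wt alone. Of the 5 neutrophil markers detected in both genotypes, 4 were lower. Macrophage markers were 1 higher and 3 lower of 11, with sums of 141885 to 145129 in wt and 130335 to 138874 in ki. Epithelial markers were 1 higher (Cdh1, 1.28) of 4 tested, with sums of 382 to 486 in wt and 740 to 784 in ki, and Epcam, Sftpc, Sftpb, Sftpa1, Foxj1 and Krt5 were below the detection filter. Of 8 endothelial markers tested, 0 passed, with sums of 3172 to 3406 in wt and 2763 to 2914 in ki. Between 38.87% and 40.92% of probes were detected per array, the mean deposited signal was 519.4 to 846.7, and arrays correlated at 0.9899 to 0.9943 within and 0.9791 to 0.983 between genotypes.

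Ddit4 encodes REDD1, an inhibitor of the growth kinase complex mTORC1 that stress, hypoxia and glucocorticoids raise. Its normalised log2 intensity was 12.26, 12.29 and 12.25 in the wt arrays and 11.20, 11.44 and 11.19 in the ki arrays. All 3 ki arrays lay below all 3 wt arrays, with no overlap. Ddit4 was thus 1.99-fold lower in ki (log2 difference −0.99, SE 0.09, 95% interval −1.21 to −0.78, adjusted p = 0.000942). It passed the test under each of the 21 alternative settings run, all of which read its only probe.

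Chac1 encodes an enzyme that degrades glutathione and is a target of ATF4 and CHOP. Its log2 intensity was 10.38, 10.33 and 10.34 in wt and 11.01, 10.91 and 10.90 in ki. On this gene's only probe, the ki arrays were all above the wt arrays. Chac1 was 1.51-fold higher in ki (difference 0.59, SE 0.07, adjusted p = 0.00263) and passed in 20 of 21 alternatives. The exception was scaling each array to its median over all probes, which put the median gene at −0.22, Chac1 at 0.34 and its adjusted p at 0.19.

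Trib3 encodes a pseudokinase that restrains ATF4 and AKT signalling and is itself induced by ATF4 and CHOP. Its log2 intensity was 10.49, 10.52 and 10.34 in wt and 9.90, 10.23 and 9.90 in ki. The second ki array stood closer to wt than the other ki arrays, yet the groups did not overlap. The gene was 1.36-fold lower (difference −0.44, SE 0.12, adjusted p = 0.0451). Its other tested probes gave −0.52 and −0.20, with p adjusted over probes of 0.15 and 0.664. With 1 array left out, the call held only without ki replicate 2 (adjusted p = 0.0193) and was lost without any other array (0.0747 to 0.136).

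Mthfd2 encodes a mitochondrial enzyme of one-carbon folate metabolism. Its log2 intensity was 12.29, 12.34 and 12.37 in wt and 11.91, 12.05 and 12.03 in ki. All ki arrays lay below the lowest wt array. It was 1.26-fold lower (difference −0.33, SE 0.08, adjusted p = 0.0291), and its other probe showed −0.55 (SE 0.10, p adjusted over probes 0.0132). On leaving out 1 array in turn, the brightest probe was lost each time (adjusted p 0.0552 to 0.0938), while the dimmer probe passed each time (p adjusted over probes 0.0322 to 0.0418).

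Of the transcription factors of the ATF4 arm, 0 of Atf4, Atf5, Ddit3 and Cebpg passed on their brightest probe. Atf4 stood at 12.72, 12.82 and 12.82 in wt and at 12.86, 12.90 and 12.94 in ki, so ki arrays lay just above wt. The difference was 0.11 (SE 0.07, adjusted p = 0.356). A dimmer Atf4 probe gave the opposite sign, with 11.06, 10.87 and 10.95 in wt and 10.53, 10.65 and 10.50 in ki. On that probe the ki arrays were all lower (−0.40, SE 0.09, p adjusted over probes 0.027), but with 1 array left out the call held only without ki replicate 2 (0.0405 to 0.0874). The log2 ratio of the dimmer to the brighter Atf4 probe was −1.66, −1.96 and −1.87 in wt and −2.32, −2.25 and −2.44 in ki. The ratio therefore shifted by −0.51 with no overlap between genotypes, and the direction of Atf4 depends on which probe is read. What sets the Atf4 probes apart was not tested.

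Ddit3, which encodes the pro-death factor CHOP, had log2 intensities of 9.21, 9.60 and 9.58 in wt and 9.69, 9.79 and 9.95 in ki. The ki arrays all lay above wt, and wt replicate 1 was the lowest. Its brightest probe did not pass (difference 0.34, SE 0.13, adjusted p = 0.129), and a dimmer probe with the same difference of 0.35 did (SE 0.08, p adjusted over probes 0.0286). The dimmer probe's call was lost on leaving out any 1 array (0.0582 to 0.0957) and with median scaling over all probes (0.601). Cebpg, a dimer partner of ATF4, differed by −0.27 (SE 0.08, adjusted p = 0.0752). Atf5, a relative of ATF4 that eIF2 alpha phosphorylation also controls, differed by −0.09 (SE 0.07, adjusted p = 0.408).

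The amino acid and one-carbon enzymes did not share a direction. Asns, asparagine synthetase, stood at 13.49, 13.47 and 13.36 in wt and 13.17, 13.14 and 13.29 in ki. The ki arrays were all lower, and the brightest probe missed the threshold (−0.24, SE 0.08, adjusted p = 0.0985). Its other probes both passed, at −0.35 and −0.39 (p adjusted over probes 0.0358 and 0.0338). On leaving out 1 array, the first of them held only without wt replicate 3 (0.0429 to 0.113) and the other was lost each time (0.0566 to 0.0912). In the serine pathway that feeds one-carbon metabolism, Phgdh, its first enzyme, differed by 0.25 (adjusted p = 0.186) and Psat1, the following aminotransferase, by 0.04 (adjusted p = 0.796). Shmt2, the mitochondrial serine hydroxymethyltransferase upstream of Mthfd2, gave 0.14 on its brightest probe (adjusted p = 0.381) and −0.41 on a dimmer one (p adjusted over probes 0.0934). As for Atf4, the ratio of the Shmt2 probes separated the genotypes, by −0.55. The dimmer Shmt2 probe was weak, however, with a deposited signal of 54.2 to 102.4, against 1171.4 to 2606.5 for the dimmer Atf4 probe.

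The stress-signalling genes Sesn2 and Nupr1 completed the arm. Sesn2, which encodes an inhibitor of mTORC1 signalling as REDD1 is, differed by 0.02 (SE 0.20, 95% interval −0.46 to 0.50, adjusted p = 0.959). Its arrays spanned 6.75 to 7.26 in wt and 6.68 to 7.29 in ki, so the arrays overlapped and its interval includes the difference of Trib3. Nupr1, a stress-induced chromatin protein, differed by 0.18 (SE 0.08, adjusted p = 0.198).

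In the chaperone arm, the ER co-chaperone gene Dnajb9 (ERdj4, which holds IRE1 in its inactive form) was lower. Its log2 intensity was 11.18, 11.23 and 11.28 in wt and 10.95, 10.97 and 10.95 in ki. The groups did not overlap, and the ki arrays lay close together. Dnajb9 was 1.21-fold lower (difference −0.27, SE 0.07, adjusted p = 0.0406). A dimmer probe gave 0.05 (SE 0.14, p adjusted over probes 0.835), and the call was lost on leaving out any 1 array (adjusted p 0.0829 to 0.122).

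Manf encodes a secreted ER-resident survival factor. It was near the detection limit, at 6.02, 5.90 and 5.93 in wt and 5.65, 5.67 and 5.56 in ki. It was detected on all 3 wt arrays and on 0 ki arrays, so only a bound holds: Manf was at least 1.14-fold lower in ki. Because the wt arrays alone carried Manf past the detection filter, that filter fixed the direction it could show, and its adjusted p (0.032, and 0.0619 to 0.105 on leaving out 1 array) supports nothing further. The bound sets the mean wt level against the lowest level detected on each ki array, or the probe's own where that is higher.

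The central ER chaperones did not pass. Hspa5 rests on 1 probe with a deposited signal of 187.7 to 315.4 over the arrays, against 17480.9 to 27520.5 for Hsp90b1. Hspa5 (BiP, which binds unfolded proteins and keeps the sensors inactive) stood at 8.10, 8.05 and 8.31 in wt and 8.12, 8.06 and 7.93 in ki. The groups overlapped, and the difference of −0.12 (SE 0.10, adjusted p = 0.47) has a 95% interval of −0.36 to 0.12. Hsp90b1 (GRP94, an ER chaperone of the HSP90 family) differed by 0.01 (SE 0.08, interval −0.19 to 0.21, adjusted p = 0.943). Calr, a lectin chaperone of glycoproteins, differed by −0.19 (SE 0.16, adjusted p = 0.473). Its relative Canx, also with 1 probe, was detected on 0 arrays and not tested. How well the probes of Hspa5 and Canx report their transcripts was not tested, so Canx mRNA cannot be called absent.

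The folding enzymes and co-chaperones gave small differences. Pdia4 and Pdia6, protein disulfide isomerases, differed by 0.01 (adjusted p = 0.936) and −0.07 (adjusted p = 0.582). Dnajc3 (p58IPK, a BiP co-chaperone) differed by 0.01 (adjusted p = 0.971). The widest positive value was that of Sdf2l1, a component of the BiP co-chaperone complex, at 0.30 (SE 0.12, adjusted p = 0.135), and Creld2, an ER stress-induced ER protein, gave 0.13 (adjusted p = 0.249). For Sdf2l1 and Creld2 the ki arrays all lay above wt, without a pass.

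The factors of XBP1 signalling and degradation also did not pass. Xbp1 stood at 13.208, 13.149 and 13.115 in wt and 13.153, 13.003 and 13.068 in ki, which overlap. Its difference was −0.08 (SE 0.08, 95% interval −0.27 to 0.10, adjusted p = 0.512). Herpud1, an organiser of ER-associated degradation, differed by −0.01 (SE 0.07, interval −0.18 to 0.16, adjusted p = 0.957), so a change as large as that of Ddit4 or Chac1 lies outside its interval. Edem1, which directs misfolded glycoproteins to degradation, differed by −0.37 (SE 0.13, adjusted p = 0.097), and its ki arrays (7.13 to 7.32) lay below its wt arrays (7.41 to 7.84).

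The sensors were measured thinly. Ern1, which encodes IRE1, stood at 9.01, 8.83 and 8.84 in wt and 9.08, 9.11 and 9.19 in ki. The ki arrays were all above wt, but the difference of 0.23 (SE 0.08, adjusted p = 0.116) did not pass. Atf6 was detected on 2 wt and 1 ki arrays and differed by −0.28 (SE 0.17, adjusted p = 0.335), with overlapping arrays. Eif2ak3, which encodes PERK, missed the detection filter and was not tested.

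Set against their promoters, the 6 measured chaperone-arm genes with an ERSE ranged from −0.19 to 0.13, with 0 higher and 0 lower by the test, where 16.2% of all genes passed. The 5 genes with a CARE ranged from −0.44 (Trib3) to 0.59 (Chac1), with 1 higher and 1 lower. Ddit4, with the largest difference, has none of the 4 motifs in its window. Sets of 6 and 5 genes are too small to read these counts against that share.

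Several members had more than 1 probe, which gives another reading on the same RNA. The 31 members had 55 probes, of which 42 were tested and 10 were detected on no array. Of the 42, 2 were higher and 9 lower with p adjusted over all probes, where 14.3% of the 18249 probes tested passed. For 11 members with at least 2 tested probes, 13 pairs could be compared, and 9 pairs had the same sign. The 4 pairs of opposite sign were those of Atf4, Shmt2, Dnajb9 and Herpud1. Probes of a gene share their arrays and are not replicates.

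**Figure D3:**
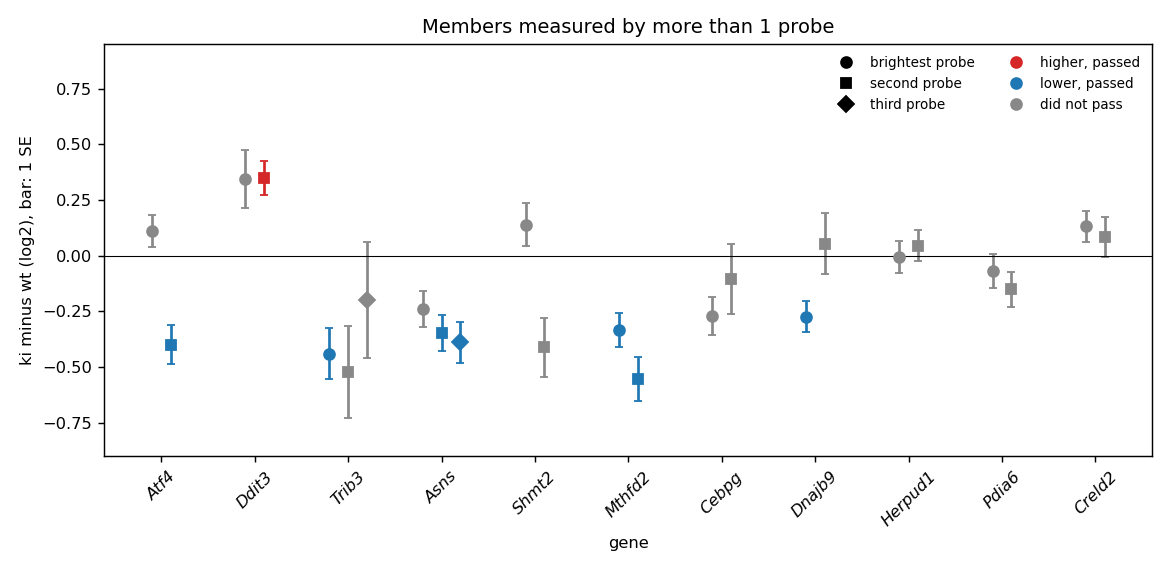
Difference between ki and wt (log2, bars 1 SE) for each tested probe of the 11 members with more than 1, ordered from the brightest probe to the dimmest within a gene and coloured where the p adjusted over all probes was under 0.05. The probes of Asns and Mthfd2 lie on 1 side of 0, while those of Atf4 and Shmt2 lie on opposite sides.

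Further genes of the pathway were read from lists by role. Among other ATF4 targets, 23 of the 27 listed genes were matched and 19 tested, of which 1 was higher and 5 were lower (31.6%, against 16.2% of all genes). A list of 19 genes is too short to read that share as an excess. The median difference of that list was −0.24, and 15 of the 19 differences were below 0. The list thus differs in median from the ATF4 arm's 0.03, a difference that was not tested.

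Stc2, which encodes a secreted stress-induced glycoprotein, stood at 8.86, 8.88 and 8.96 in wt and 8.44, 8.48 and 8.42 in ki. The groups were well apart (−0.45, SE 0.07, adjusted p = 0.00719). Cth, the enzyme that makes cysteine from cystathionine, stood at 8.19, 7.81 and 7.76 in wt and 7.15, 7.28 and 7.20 in ki. All ki arrays were lower, and wt replicate 1 was the highest (−0.71, SE 0.13, adjusted p = 0.012). Cebpb, a stress-induced transcription factor of the C/EBP family, stood at 14.89, 14.72 and 14.82 in wt and 14.43, 14.34 and 14.20 in ki. It too was lower without overlap (−0.49, SE 0.09, adjusted p = 0.0143). Stc2 and Cth passed on leaving out each array, and Cebpb was lost without wt replicate 1 or 3 (adjusted p 0.0562 and 0.0525).

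The amino acid transporter gene Slc38a2, which takes up neutral amino acids, stood at 12.26, 12.31 and 12.27 in wt and 11.93, 11.95 and 11.99 in ki. Its ki arrays were all lower (−0.32, SE 0.07, adjusted p = 0.0217), and with 1 array left out the call held only without ki replicate 3 (adjusted p 0.0477 to 0.0812). The remaining pair past the threshold, chosen for mention after their values were seen, were Slc7a11, the cystine transporter (−0.39, adjusted p = 0.036), and Shmt1, the cytosolic serine hydroxymethyltransferase (0.75, adjusted p = 0.0349). Shmt1 was the gene of this list that was higher. With 1 array left out, Slc7a11 passed only without ki replicate 3 (adjusted p 0.0327 to 0.111), and Shmt1 only without wt replicate 2 or ki replicate 1 (0.021 to 0.112).

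Genes upstream of ATF4 were measured only in part, and 0 of those tested passed. Of the kinases, only those that respond to heme shortage and viral RNA were tested. PERK and the kinase that responds to amino acid shortage were not. Of the eIF2 alpha kinases, phosphatase subunits and eIF2B subunits, 10 of 11 were matched and 9 tested, with 0 higher and 0 lower and a median of −0.01. Over all genes, 16.2% passed. The smallest p values were those of Ppp1r15a (GADD34, the stress-induced phosphatase subunit), at −0.20 (SE 0.09, adjusted p = 0.205), and Eif2ak2 (PKR, the kinase that double-stranded RNA activates), at 0.16 (SE 0.08, adjusted p = 0.23). Cytosolic tRNA synthetases, many of them ATF4 targets, had 0 of 19 tested genes past the threshold and a median of 0.04. Lists this short do not let a count of 0 be read as a result. In the synthetase list, Cars differed by 0.84 (SE 0.26, adjusted p = 0.0764) and Hars by −0.29 (adjusted p = 0.0906). Cars was detected on 1 wt and 3 ki arrays, with widely spread wt arrays (5.29 to 6.16). The size of its difference therefore rests in part on undetected wt values.

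Among other ER chaperones and oxidoreductases, 0 of 16 were higher and 1 was lower (6.25%, against 16.2% of all genes), with a median of −0.03. Lists of this length are too short to read a low count as a result. That gene was Sil1, the nucleotide exchange factor of BiP, at 9.29, 9.54 and 9.43 in wt and 8.88, 8.97 and 8.58 in ki. Its ki arrays lay below wt without overlap (−0.61, SE 0.13, adjusted p = 0.0203), and the call was lost without wt replicate 2 or 3 (adjusted p 0.0736 and 0.0656). Of 11 ER-associated degradation genes tested, 0 passed, and the median was −0.12. Derl2, a channel component, differed by −0.37 (adjusted p = 0.0758) and Vcp, the ATPase that extracts the substrates, by 0.23 (adjusted p = 0.104).

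Among the site proteases that cut ATF6 and the related CREB3 family, 8 genes were tested, 0 were higher and 1 was lower (12.5%, against 16.2% of all genes). Creb3l3, a membrane-bound factor best known from liver, was detected on 3 wt arrays and 0 ki arrays, so like Manf it entered the test through wt alone. It was at least 1.31-fold lower in ki (adjusted p = 0.0138). Of the 7 genes of this list detected in both genotypes 0 passed, against 15.4% of all such genes. The call was lost without wt replicate 2 or 3 (adjusted p 0.0503 and 0.053). Of 7 ER stress death genes tested, 0 passed, with a median of 0.02, and lists this short do not let such a count be read as a result. Bbc3 (PUMA) and Pmaip1 (NOXA), both BH3-only death proteins, differed by 0.33 (adjusted p = 0.0697) and 0.28 (adjusted p = 0.243).

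**Figure D4:**
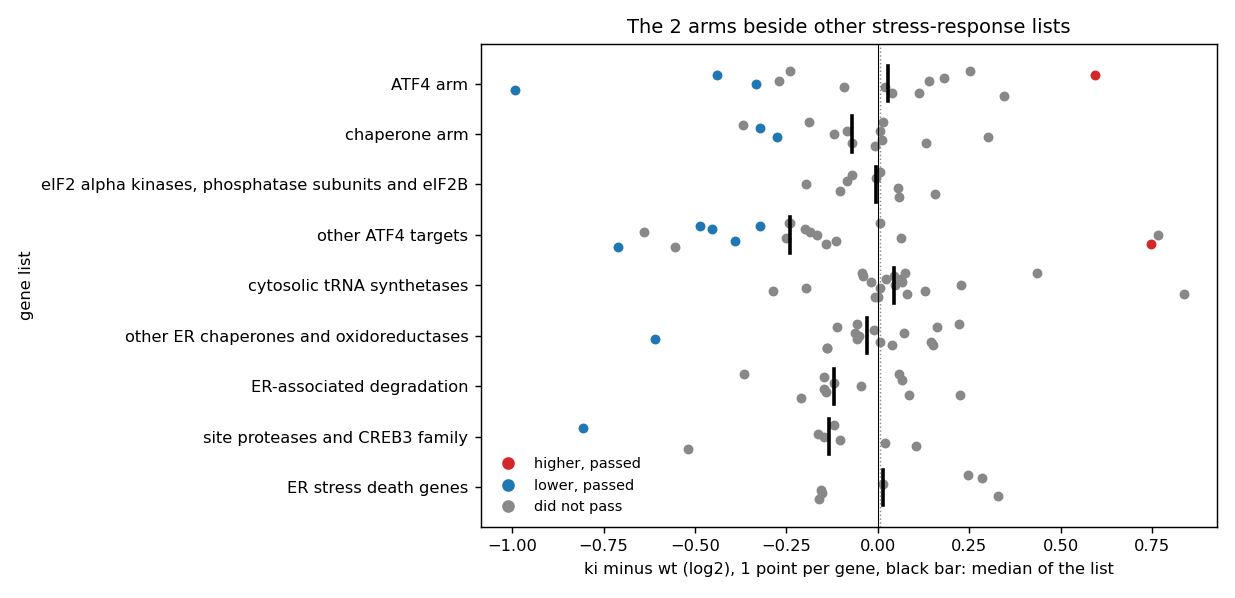
Difference between ki and wt (log2), 1 point per tested gene, for the ATF4 and chaperone arms and 7 further lists, with a black bar at each list's median, a dotted line at the median of all genes and colour for genes past the threshold. The list of other ATF4 targets has its median at −0.24, and the medians of the other lists lie between −0.13 and 0.04.

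How firmly each member's call stands differed. Ddit4 passed in 21 of 21 alternatives and Chac1 in 20 of 21. Both were read from a single probe in all of these, so no other probe could be compared. Mthfd2 passed in 11 of 21, Trib3 in 10 of 21, Dnajb9 in 10 of 21 and Manf in 6 of 20. The direction of the first 5 was the same in each alternative run, and that of Manf was fixed by the detection filter.

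**Figure D5:**
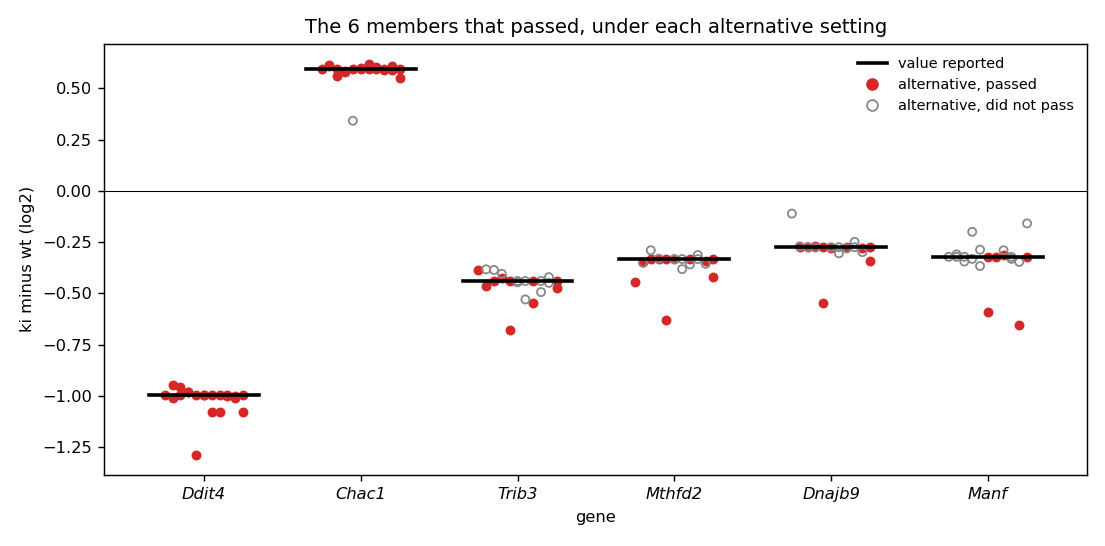
Difference between ki and wt (log2) of the 6 members that passed, under each alternative setting, with a black bar at the reported value. Filled red points had an adjusted p under 0.05, or under 0.01 in the setting with that threshold, and open grey points did not. Ddit4 has filled points throughout and Chac1 has 1 open point, at 0.34.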

How the data were processed

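Total RNA of cultured lung fibroblasts was amplified to biotinylated cRNA and hybridised to Illumina mouse bead arrays, 1 per mouse, per the labels' protocols. The authors deposited a non-normalised intensity and a detection p-value for each of 45281 probes. They also deposited normalised intensities, which the series table repeats in 100% of its values. How they normalised, and with which software, is not given in the sources used here.

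From the non-normalised intensities, background was corrected by normexp with negative-control moments inferred from the detection p-values. An offset of 16 was added, arrays were quantile normalised and log2 was taken (R 4.3.3, limma 3.58.1). The 18249 probes with a detection p below 0.05 on 3 or more of the 6 arrays were fitted with lmFit and eBayes. The brightest tested probe stood for each gene, and p was adjusted by Benjamini-Hochberg over 10412 genes, or over all tested probes where a probe is reported. A probe undetected on all arrays of a genotype is given only a bound. Of all probes, 34885 had 1 gene symbol, 18 several and 10378 none in GEO's platform annotation. The fit, the choice of probe and the adjustment of p were tested on simulated log2 values. Background correction, normalisation and the detection filter were not part of that test. Precision is limited by 3 arrays per genotype.

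Members and lists were chosen with earlier results of these data known, so lists were described and not tested. All members are named. Of each further pathway list the 4 genes past the threshold with the smallest p are named (2 with the smallest p where none passed, all where 5 or fewer passed), and up to 4 per marker list. Unmatched list genes were not analysed here. Alternatives covered background, scaling, offset, detection filter, variance model, array weights, a replicate block, probe choice, threshold and leaving out each array. The last 3 to be tried were added after the data were seen: adjustment over probes, a variance prior from 1 probe per gene, and leaving out together the wt array of highest mean signal and the ki array of lowest. Figures were drawn with Python 3.11.15 and matplotlib 3.10.9.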

Additional observations from a re-analysis of the deposited data

How the results depend on the processing

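Over all genes, 1687 passed, against 733 at an adjusted p under 0.01, 621 without wt replicate 1 and ki replicate 2, the brightest and the dimmest array of their genotypes (an alternative chosen after seeing the data) and 1010 to 1252 on leaving out 1 array. The ATF4 arm's 4 calls became 2 without a detection filter, at an adjusted p under 0.01, with the replicate block and without that pair of arrays, 8 with a trended and robust variance prior, and 2 to 3 on leaving out 1 array. With median scaling they became 6 over detected probes (1 higher, 5 lower) and 5 over all probes (0 higher, 5 lower). The mean of a gene's probes gave 6 (2 higher, 4 lower), and detection at p under 0.01 on all 6 arrays gave 5. Without further background correction, and with the authors' normalised intensities, there were 3. The chaperone arm's 2 calls became 1 with median scaling over probes detected on all arrays, an offset of 50, detection at p under 0.01 on all 6 arrays or the mean of a gene's probes. They became 0 without a detection filter, at an adjusted p under 0.01, with the replicate block, without that pair of arrays and on leaving out any 1 array. With the trended and robust prior there were 2, 1 higher (Sdf2l1, adjusted p = 0.0407) and 1 lower, with Manf lost (0.301). The sensors had 0 calls throughout. The ATF4-arm median of 0.0288 became −0.0354 with median scaling over detected probes, −0.243 over all probes and −0.114 with the mean of a gene's probes, and ran from −0.0396 to 0.103 on leaving out 1 array. The chaperone-arm median of −0.0702 became −0.12 and −0.328 under the same scalings, −0.0386 with the stricter detection filter and −0.0219 without that pair of arrays, and ran from −0.0995 to −0.0267 on leaving out 1 array. Median scaling over all probes put the median gene at −0.217 and the higher share of calls at 21.7%, against 53.8%. The causes of these shifts were not tested.

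Directions turned only for genes that did not pass. With median scaling over detected probes these were Atf4 (−0.00862), Psat1 (−0.0623), Hsp90b1 (−0.0681), Dnajc3 (−0.0301) and Pdia4 (−0.0227). Over all probes they were Atf4 (−0.216), Psat1 (−0.27), Shmt2 (−0.07), Sesn2 (−0.13), Nupr1 (−0.0911), Hsp90b1 (−0.276), Dnajc3 (−0.238), Pdia4 (−0.23), Creld2 (−0.105), Eif2ak2 (−0.123) and Vcp (−0.0932). Array weights turned Hsp90b1 (−0.0171), Dnajc3 (−0.0195) and Herpud1 (0.00903), and the mean of a gene's probes turned Atf4 (−0.144), Shmt2 (−0.136), Herpud1 (0.0183) and Bbc3 (−0.0745). Without that pair of arrays Hsp90b1 (−0.00491) and Herpud1 (0.0173) turned. On leaving out 1 array, the genes whose values took both signs were Sesn2 (−0.13 to 0.212), Herpud1 (−0.0407 to 0.0121), Pdia4 (−0.0542 to 0.0789), Dnajc3 (−0.0795 to 0.0521), Psat1 (−0.0133 to 0.0818) and Hsp90b1 (−0.0358 to 0.0758). Of the remaining comparisons of single genes, 792 kept direction and side of the threshold, 87 lost the call and 23 gained it.

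Same-numbered arrays did not deviate together (correlations 0.00407, 0.0143 and 0.105), so the numbers were not read as pairs. With the replicate block, 1205 genes passed, and the dimmer probes of Atf4, Ddit3 and Asns were lost (p adjusted over probes 0.0659 to 0.0756) while that of Mthfd2 passed (0.0296). Depth limits Manf, Atf6, Creb3l3 and the other probes near background.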
